A study of Mus musculus with 8 samples.

Results

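In sorted cells of the mouse yolk sac, 111 of the 24454 genes in the count table were read only in the pools that carried both an endothelial and an erythroid marker. These genes had 0 counts in every one of 6 other libraries and at least 100 counts in both libraries of the double positive cells. A gene family or symbol that was set apart by name (solute carriers, apolipoproteins, serpins, keratins, claudins, collagens, Hnf, Foxa and Rab genes and 21 single genes such as Alb and Lrp2) was left out. Without that step 143 genes met the count rule, and 32 of them were left out, 24 by the start of their symbol and 8 by name. The genes were thus chosen by the very counts given here, and their levels and absences are a description with no test.

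RNA came from the yolk sac, the membrane outside the embryo that carries the first blood cells and vessels. All 8 pools came from C57BL/6 mice of the genotype miR144-451+/GFP, in which green fluorescent protein (GFP) is carried on 1 allele at the locus of a pair of erythroid microRNAs. The sort gates were GFP and VE-Cadherin, an adhesion protein of vessel cells that is the product of Cdh5. The endothelial group (replicates 1 to 3) had VE-Cadherin but no GFP, the erythroid group (replicates 4 to 6) had GFP but no VE-Cadherin, and the double positive group (replicates 7 and 8) had both. A pool held 25 cells in the first and second group and 24 cells in the double positive group. No pool was treated or cultured, and all groups share the GFP allele and the stage, E11.5. The labels do not say whether pools came from separate embryos, so a p-value reflects only variation among the pools, part of which could be technical. In a pool, fewer cells with a transcript and less of that transcript per cell cannot be told apart.

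As background, the visceral endoderm is the epithelium that covers the outside of the yolk sac next to its blood islands. Its cells carry a brush border of microvilli, take up maternal proteins and lipids, and secrete plasma proteins such as alpha-fetoprotein before the fetal liver takes over that work. Many of its enzymes and its transcription factors of the HNF, FOXA and GATA families are shared with liver, intestine and kidney.

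Replicates 7 and 8 had 4637930 and 4818074 counts in total, against 3723128 to 4439165 in endothelial and 5291843 to 7618444 in erythroid pools. The 111 genes took 0.784% of all counts in replicate 7 and 0.652% in replicate 8. The labelled cell types were checked on marker lists. All 8 endothelial markers were above their erythroid level in the double positive libraries and 7 of 8 fell below their endothelial level, with Cdh5 itself at 51.0 ± 7.19 normalised read counts (CPM, scaled to library size) in the double positive pools (SD, n = 2), 209 ± 32.0 in the endothelial pools (SD, n = 3) and 0 in the erythroid pools. All 8 primitive erythroid markers lay between the endothelial and the erythroid level. Of 22 visceral endoderm markers, 6 met the same count rule (Vil1 among them), so nothing is read from their calls. Of the other 16, by edgeR's quasi-likelihood test, all 16 rose against the erythroid libraries, while against the endothelial libraries 13 rose and 1, Sox17, fell. Dab2 and Gata6 were called in neither direction against the endothelial libraries. Gata4, among the 13, was at 0 in replicates 1 to 6, so only a rise could be called for it. Over all genes tested, 31.5% rose against the erythroid and 14.6% against the endothelial libraries. The summed level of all 22 was 829 to 1381 CPM in the endothelial libraries, 11.1 to 26.0 CPM in the erythroid libraries, and 102912 and 100227 CPM in replicates 7 and 8, with none of the 22 at 0 in all 8 libraries. The part of such cells in the level of the 111 genes was not tested. Of 9 parietal endoderm markers, 6 rose against the erythroid and 3 fell against the endothelial libraries. They summed to 576 and 538 CPM in replicates 7 and 8, 1370 to 2070 CPM in endothelial and 6.66 to 36.5 CPM in erythroid pools. Summed markers of trophoblast stood at 8.22 and 22.4 CPM in replicates 7 and 8, with 11 of 15 at 0 in all 8 libraries. Those of mesothelium stood at 2.29 and 10.8 CPM. Macrophage markers summed to 1013 to 2411 CPM in the endothelial libraries, 0 in the erythroid libraries, and 106 and 150 CPM in replicates 7 and 8.

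Short stretches of promoter show the matches to motifs of HNF1 and HNF4 type, which are known from genes of liver and gut epithelia. RefSeq promoter windows on GRCm38.p6, 250 bases before to 50 bases after a start, were given for 77 of the 111 genes, as 97 windows. An HNF1-type motif, GTTAATNAT on either strand, lay in 5 of the 97 windows (5.15%, 95% exact binomial interval 1.69% to 11.6%) and in 0.801% of all 32851 windows. An HNF4-type motif, CAAAGTCCA on either strand, lay in 3 windows (3.09%, interval 0.642% to 8.77%) and in 0.475% of all windows. The 5 HNF1-type and 3 HNF4-type matches are printed 5′ to 3′ on the strand of the gene, with the match in capitals and 20 bases on each side.
Igfbp1, chr11:7197708-7197756, plus strand: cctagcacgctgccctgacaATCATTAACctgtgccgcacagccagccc
Habp2, chr19:56287826-56287874, plus strand: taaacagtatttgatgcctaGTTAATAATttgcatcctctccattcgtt
Cdhr2, chr13:54701389-54701437, plus strand: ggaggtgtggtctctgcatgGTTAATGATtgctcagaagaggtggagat
Prodh2, chr7:30493511-30493559, plus strand: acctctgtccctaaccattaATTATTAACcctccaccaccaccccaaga
Golt1a, chr1:133309741-133309789, plus strand: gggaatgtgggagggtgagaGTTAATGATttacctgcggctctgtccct
Cyp2c68, chr19:39741150-39741198, minus strand: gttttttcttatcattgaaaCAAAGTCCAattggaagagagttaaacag
Muc13, chr16:33794283-33794331, plus strand: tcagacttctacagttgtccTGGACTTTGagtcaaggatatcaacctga
Aadat, chr8:60506032-60506080, plus strand: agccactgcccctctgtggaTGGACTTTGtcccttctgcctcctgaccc
The first base of the HNF1-type match lay at −59 from the start in Igfbp1, −66 in Habp2, −54 in Cdhr2 and −62 in Golt1a, and at −127 in Prodh2. In Igfbp1 and Prodh2 the motif is on the opposite strand to the gene, as is the HNF4-type motif in Muc13 and Aadat. These are matches of letters and say nothing of whether a factor is bound.

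**Figure D1:**
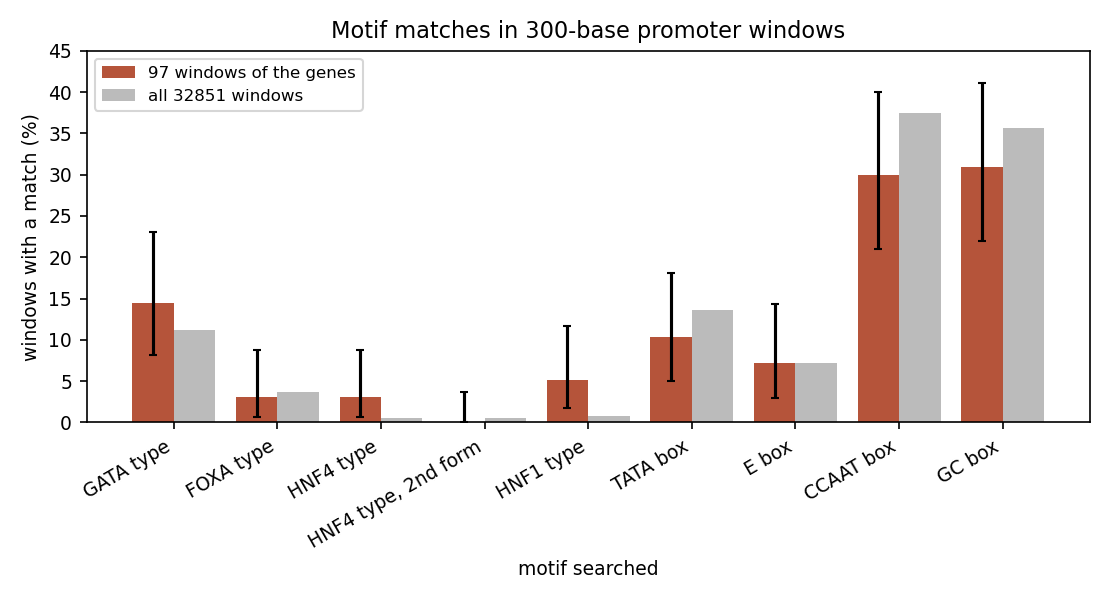
Share of 300-base promoter windows with a match (percent, vertical axis) for each motif searched, in the 97 windows of the 111 genes (red, with 95% exact binomial intervals) and in all 32851 windows (grey). The HNF1-type share of 5.15% has an interval that begins at 1.69%, above the 0.801% of all windows. For the first HNF4-type form the interval begins at 0.642%, above 0.475%. The second HNF4-type form had no match, and its interval, up to 3.73%, holds the 0.478% of all windows. The GATA-type, FOXA-type, TATA box, E box, CCAAT box and GC box intervals also hold the share of all windows.

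Of the other motifs, the GATA type spelled AGATAA was found in 14.4% of the genes' windows and 11.2% of all windows. The FOXA type spelled TGTTTAC lay in 3.09% and 3.65%. TATAAA lay in 10.3% and 13.6%, CACGTG (an E box) in 7.22% and 7.15%, CCAAT in 29.9% and 37.4%, and CCGCCC (a GC box) in 30.9% and 35.7%. A second HNF4-type form, CAAAGGTCA, lay in none of the 97 windows and in 0.478% of all. Windows of 1 gene overlap, so they are not independent, and the median GC content was 50.7% in the genes' windows and 52.7% in all. Counted by gene, an HNF1-type match lay near 5 of the 77 genes (6.49%) and 0.940% of all genes with a window. Hnf4a, which encodes a factor that reads the HNF4-type motif, met the same count rule but is among the symbols left out. It had 498 and 279 counts in replicates 7 and 8 and 0 in replicates 1 to 6. Foxa2 had 147 and 109 counts there and 0 elsewhere.

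A complete absence outside the double positive pools was uncommon for a gene read at this depth. Of 4784 genes with at least 100 counts in both replicates 7 and 8, 143 (2.99%) had no count in replicates 1 to 6, and the 111 genes are what remained of these. Against 1 population alone absence was more frequent, with 180 of the 4784 genes (3.76%) at 0 in endothelial and 539 (11.3%) at 0 in erythroid libraries. A rule turned to the endothelial or erythroid libraries gave almost no genes, but it is not the same comparison. It asks for no counts in the double positive pools, which also carried endothelial and erythroid markers. Of 4699 genes with at least 100 counts in all 3 endothelial libraries, only Ccl3, a chemokine gene at 96.2 ± 20.2 CPM (SD, n = 3), had 0 counts in the other 5, and of 2623 genes at that depth in the erythroid libraries none did.

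**Figure D2:**
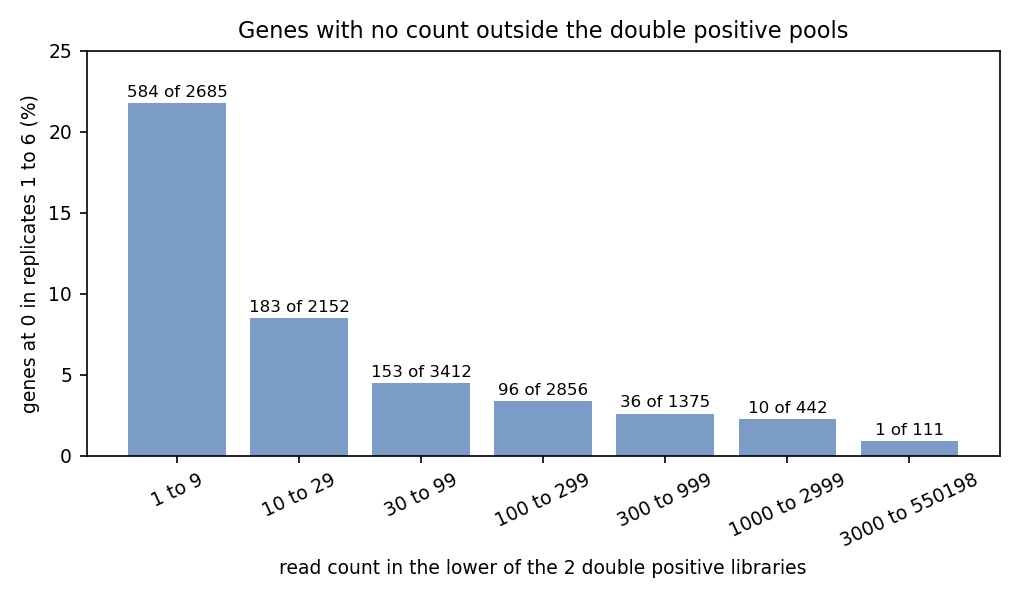
Share of genes with 0 counts in replicates 1 to 6 (percent, vertical axis) by the read count in the lower of the 2 double positive libraries (horizontal axis), with the number of genes over each bar. The share falls from 21.8% at 1 to 9 counts to 0.901% at 3000 counts or more.

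The share of genes at 0 in replicates 1 to 6 depended on depth. It was 21.8% of genes with 1 to 9 counts in the lower double positive library, 8.50% at 10 to 29, 4.48% at 30 to 99, 3.36% at 100 to 299, 2.62% at 300 to 999 and 2.26% at 1000 to 2999 counts. Above 3000 counts it was 0.901%, a single gene that is among the symbols left out. In all, 1063 genes had counts in both double positive libraries and none elsewhere, so the 111 genes are the well-read end of a longer series.

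A count of 0 sets only an upper limit. With 3 counts as the floor, it allows up to 0.397 to 0.489 CPM in each endothelial library and 0.699 to 0.978 CPM in each erythroid library, or 0.151 and 0.285 CPM over each group. The reads carry no molecular identifiers, so floors and intervals cover counting error only. Against those group floors the 111 genes were at least 134-fold to at least 1763-fold higher than in the endothelial libraries (median of the bounds 282). Over the erythroid libraries the bounds ran from at least 70.6-fold to at least 932-fold (median 149). All 111 genes entered the fit and were called higher in both comparisons by edgeR's quasi-likelihood test. Since the same counts chose them, nothing is read from that number. Over all 12136 genes tested, 14.6% were called higher than in the endothelial libraries (1776 higher and 840 lower) and 31.5% higher than in the erythroid libraries (3820 higher and 1283 lower). With library size alone as the scale, the splits were 1118 higher and 1901 lower, and 5760 higher and 473 lower.

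Very abundant transcripts of the double positive pools gave a scale for the zeros. Afp, which encodes alpha-fetoprotein, had 278398 and 272158 counts in replicates 7 and 8. It had 81, 101 and 130 counts in the endothelial and 52, 40 and 22 counts in the erythroid libraries. If each of the 111 genes stood to Afp in replicates 1 to 6 as it did in replicates 7 and 8, between 0.158 and 2.09 counts would be expected over those 6 libraries together (median 0.334). At that ratio 101 of the 111 genes would be expected at under 1 count, and 52.4 counts would be expected over all 111, which were chosen for having 0. At the ratios of Apob, Apoa1 and Rbp4 the sums over the 111 genes would be 27.7, 62.8 and 171 counts. At the ratio of Trf, the transferrin gene, with 1143 counts in the endothelial libraries, the sum would be 778 counts, and 96 of the 111 genes would be expected at over 3 counts, against 10 at the ratio of Rbp4. Whether RNA passed between samples was not tested.

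At the threshold the genes grade into their neighbours. The 5 genes just inside were Cideb with 100 and 104 counts in replicates 7 and 8, Adtrp with 113 and 101, L1td1 with 151 and 101, Ms4a10 with 124 and 102, and Pdzd3 with 193 and 102. Just outside stood Clps with 126 and 98 counts, Abhd3 with 117 and 96, Prr15l with 127 and 96, Rab20 with 130 and 95, and Atp7b with 127 and 93. In all, 87 genes at 0 elsewhere had 50 to 99 counts in the lower library, 77 of them with a symbol that is not left out. On the other side of the rule, 26 genes with at least 100 counts in both libraries had only 1 to 3 counts in replicates 1 to 6 together, 17 of them with a symbol that is not left out. The symbols of Rab20, Cubn and Cldn6 are left out in any case. Among the 26 were Cubn, an endocytic receptor, at 1480 ± 146 CPM with 3 counts elsewhere, Maob at 1158 ± 97.8 CPM with 3, and Cldn6 at 748 ± 18.6 CPM with 1 (SD, n = 2).

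Counts of the 111 genes ran from 100 to 1658 in replicate 7 (median 215) and from 101 to 1320 in replicate 8 (median 199). The mean level ran from 20.2 to 266 CPM, with a median of 42.6 CPM. Per kilobase of exon, for the 109 genes found in GENCODE M21, it ran from 1.42 CPM per kb in Fras1, a long gene of the basement membrane, to 539 CPM per kb in Tff3, with a median of 17.8. CPM values are not corrected for length, so an order of genes by CPM is an order of reads and not of transcripts.

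**Figure D3:**
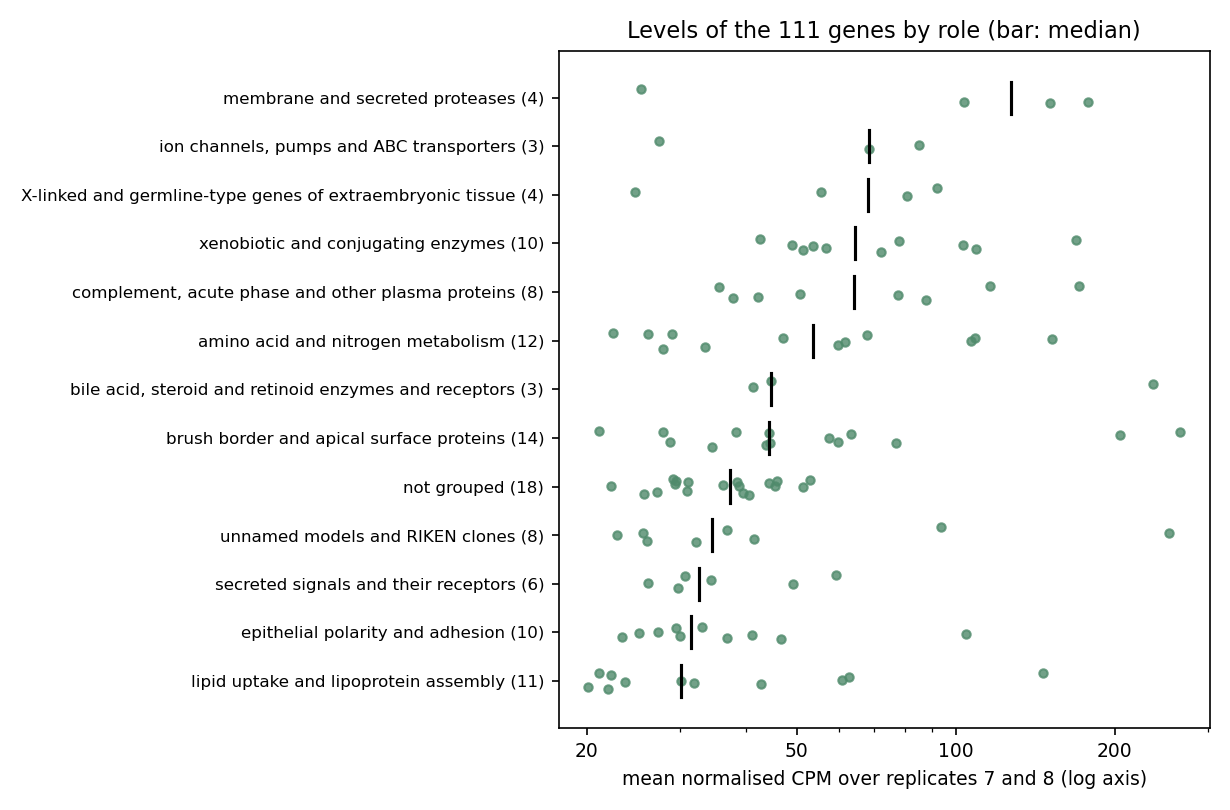
Mean normalised CPM over replicates 7 and 8 (horizontal log axis) of each of the 111 genes (points), by role, with the number of genes in brackets and the median of each role as a bar. The 4 proteases have the highest median, 127 CPM, and the 11 lipid genes the lowest, 30.2 CPM, on this scale without length correction.

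Roles were given to all but 18 of the 111 genes. The lists of endocytosis, carbohydrate metabolism, and endoderm and epithelial transcription and splicing factors held none of the 111. By median CPM the roles ran from 127 for 4 proteases to 30.2 for 11 lipid genes. Per kilobase the order was another, from 35.1 CPM per kb for 4 X-linked and germline-type genes to 5.14 CPM per kb for 10 genes of epithelial polarity.

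The brush border and apical surface role held 14 genes, 6 from the list and 8 placed there after their values were seen, with a median of 44.4 CPM and 15.99% and 14.2% of the counts of the 111 genes in replicates 7 and 8. Tff3 is a secreted trefoil peptide of mucosal epithelia, and not a brush border protein, that was placed here after its values were seen. It (chromosome 17, 31125306 to 31129646, minus strand, GRCm38) had 1658 and 1055 counts in replicates 7 and 8, or 317 and 215 CPM. Its mean of 266 ± 72.1 CPM (SD, n = 2) and its level per kilobase were the highest of the 111 genes, and that mean stood at least 1763-fold above the endothelial libraries. Pls1, which bundles actin in the core of microvilli (chromosome 9, 95752642 to 95845311, minus strand), had 1187 and 896 counts, 205 ± 31.3 CPM. Cdhr2, a cadherin that links the tips of microvilli and has one of the HNF1-type matches, stood at 77.2 ± 13.2 CPM. Vil1, villin, which bundles and severs actin in the brush border, had 354 and 256 counts (59.9 ± 10.96 CPM). Its exons overlap those of Usp37 on the other strand, and since the strand setting of the counting is not given, reads of the pair cannot be told apart. Muc13, a transmembrane mucin of the apical surface with an HNF4-type match, stood at 57.7 ± 14.7 CPM. Sycn, a protein of secretory granules that was placed here in the same way, had 212 counts in replicate 7 and 422 in replicate 8. The other genes of the group, Vnn1, Bst1, Clca1, Clrn3, Phgr1, Pdzd3, Eps8l3 and Lypd8, lay between 21.1 and 44.5 CPM. Of 11 further brush border genes tested, 6 rose against the endothelial and 8 against the erythroid libraries by edgeR, with none called lower. Over all genes tested, 14.6% and 31.5% rose. Myo7b, Ush1c and Anks4b were at 0 in replicates 1 to 6, so only a rise could be called for them. Mall and Prom1 rose against the erythroid libraries, yet at 1.92 and 1.93 CPM they stood under their endothelial means of 12.2 and 10.4 CPM. Among the genes that rose in both comparisons was Pdzk1, a scaffold of apical transporters, at 207 ± 25.9 CPM (SD, n = 2) against 3.85 ± 1.95 CPM in endothelial pools (SD, n = 3).

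Membrane and secreted proteases were few but well read. Tmprss2, a serine protease anchored in the apical membrane, had 1167 and 651 counts in replicates 7 and 8 and a mean of 178 ± 63.9 CPM (SD, n = 2). Cpn1, the catalytic chain of the plasma carboxypeptidase that trims kinins and anaphylatoxins, had 844 and 690 counts (151 ± 14.6 CPM). Habp2, a plasma serine protease, had 609 and 447 counts (104 ± 17.9 CPM). Its exons overlap those of Nrap on the other strand, and it carries one of the HNF1-type matches. Enpep, an aminopeptidase that cleaves angiotensin, was near the lower end at 25.3 ± 1.22 CPM. All 4 were higher in replicate 7 than in replicate 8. Of 10 further proteases tested, 6 rose against the endothelial and 8 against the erythroid libraries, with none called lower. Among these was Prss8, a membrane-anchored protease, at 183 ± 2.45 CPM. Of all genes tested, 14.6% and 31.5% rose. Ggt1 and Cpn2 were at 0 in replicates 1 to 6, so only a rise could be called for them. Naaladl1 and Prss8 were at 0 in the endothelial libraries, where the same holds. Ace rose against the erythroid libraries, yet at 3.54 CPM it stood under its endothelial mean of 18.4 CPM. Dpp4 rose there too, at 77.5 CPM, but was not called against its endothelial mean of 63.9 CPM.

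The plasma proteins numbered 8, with a median of 64.2 CPM. Kng2, a kininogen gene from whose product bradykinin is cut, had 1059 and 688 counts in replicates 7 and 8 (171 ± 44.0 CPM; SD, n = 2). Its paralog Kng1, at 932 ± 32.1 CPM, is outside the set because 17 counts were found in replicates 1 to 6. Reads of such similar copies may be split by counting, so the levels of both are uncertain. Igfbp1, which binds insulin-like growth factors, differed most between the pools, with 971 counts in replicate 7 and 229 in replicate 8. Itih2, a chain of the inter-alpha-trypsin inhibitor that stabilises hyaluronan, stood at 87.7 ± 10.8 CPM, and Sod3, the extracellular superoxide dismutase, at 77.7 ± 8.26 CPM. Proz, a cofactor in the control of coagulation, stood at 50.8 ± 6.90 CPM. The heme-binding Hpx, the secreted factor Lect2 and the terminal complement component C9 lay between 35.6 and 42.2 CPM. Of 29 further genes of the list tested, 23 rose and 2 fell against the endothelial libraries, and 25 rose and 1 fell against the erythroid libraries. The shares that rose over all genes tested were 14.6% and 31.5%. The abundant genes of that list, Afp at 54340 ± 1590 CPM, Trf at 9825 ± 1818 CPM and Rbp4, which encodes the retinol carrier, at 5805 ± 197 CPM, all had counts in replicates 1 to 6.

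Steroid, bile acid and xenobiotic metabolism gave 13 genes. Hsd17b2, an enzyme that oxidises estradiol and testosterone to less active forms (chromosome 8, 117701904 to 117759027, plus strand), had 1263 and 1138 counts in replicates 7 and 8. Its mean was 237 ± 6.72 CPM (SD, n = 2), at least 1569-fold above endothelial and at least 829-fold above erythroid pools. Nr1h4, the bile acid receptor FXR, had 287 and 170 counts (44.8 ± 14.3 CPM), and Abcc2, which exports conjugated organic anions across the apical membrane, 229 and 190 (41.2 ± 3.57 CPM). Aadac, a deacetylase of drugs and lipids in the endoplasmic reticulum, had 691 and 1007 counts (169 ± 51.7 CPM), the most reads of the 10 xenobiotic enzymes. Adh1, the alcohol dehydrogenase that also oxidises retinol, had 626 and 487 counts (109 ± 14.4 CPM). Akr1c19, an aldo-keto reductase, stood at 103 ± 22.3 CPM, Mgst2, a microsomal glutathione transferase, at 78.1 ± 3.68 CPM, and Cyp2c68, a cytochrome P450 with an HNF4-type match, at 72.2 ± 0.637 CPM. The other 5, the cytochrome P450 Cyp2s1, the glucuronosyltransferase Ugt2b34, the glycosyltransferase Ugt3a2, the glutathione transferase Gstm3 and the soluble epoxide hydrolase Ephx2, lay between 42.6 and 56.8 CPM. Several belong to families of similar copies, in which the counting could split or drop reads. Of 10 further bile acid, steroid and retinoid genes tested, 6 rose against the endothelial libraries, and 6 rose and 1 fell against the erythroid libraries. Over all genes tested, 14.6% and 31.5% rose. Abcb11 and Bco1 were at 0 in replicates 1 to 6, so only a rise could be called for them. The gene that fell was Hsd3b6, a steroid-forming dehydrogenase read at 576 ± 118 CPM in erythroid pools (SD, n = 3) and at 42.1 ± 19.5 CPM in the double positive pools. Hsd3b6 was at 0 in the endothelial pools and is among the 6 genes that rose against them.

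Amino acid and nitrogen metabolism held 12 genes with a median of 53.6 CPM. Haao, which opens the ring of hydroxyanthranilate in the kynurenine pathway from tryptophan to NAD (chromosome 17, 83831156 to 83847963, minus strand), led with 658 and 875 counts in replicates 7 and 8 (152 ± 37.2 CPM; SD, n = 2). Tdh, threonine dehydrogenase, had 522 and 579 counts (109 ± 12.9 CPM). Aass, the first enzyme of lysine breakdown, had 679 and 413 counts (107 ± 32.3 CPM). Prodh2, hydroxyproline dehydrogenase with one of the HNF1-type matches, had nearly equal counts of 345 and 344 (68.0 ± 2.94 CPM). Urah, an enzyme of urate breakdown, stood at 60.0 ± 3.97 CPM and Gldc, the decarboxylase of the glycine cleavage system, at 61.6 ± 14.8 CPM. Otc, the ornithine carbamoyltransferase of the urea cycle, had 165 and 308 counts (47.2 ± 22.1 CPM). Aadat, Aspa, Kynu, Sdsl and Pnp2 lay between 22.5 and 33.6 CPM. Only 2 of these 12 genes were higher in replicate 7, against 60 of all 111. That count depends on the scale, since several, such as Prodh2, Sdsl and Kynu, had nearly equal counts in both pools. Of the 12 genes, 5 came from the list and the rest were placed after their values were seen. Of 21 further genes of the list tested, 16 rose against the endothelial and 18 against the erythroid libraries, with none called lower. Among all genes tested, 14.6% and 31.5% rose.

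The kynurenine pathway, picked for a closer look after its values were seen, held 3 of the 111 genes. Kynu, kynureninase, had 140 and 143 counts in replicates 7 and 8, and Aadat, the kynurenine aminotransferase, had 154 and 185. Kmo, the monooxygenase that makes the substrate of kynureninase, stood at 44.4 ± 7.59 CPM (SD, n = 2) and failed the rule through a single endothelial library. Qprt, the last enzyme on the way to NAD, stood at 66.0 ± 0.617 CPM with 0.326 ± 0.564 CPM in the endothelial libraries (SD, n = 3). Acmsd, which diverts the intermediate made by Haao away from NAD, was read in erythroid libraries at 27.5 ± 18.3 CPM (SD, n = 3) and at 0.962 ± 1.07 CPM in replicates 7 and 8. The oxygenases at the head of the pathway were low in the double positive libraries, with Tdo2 at 4.55 ± 0.485 CPM, Ido2 at 0.293 ± 0.126 CPM and Ido1 listed at 0 in all 8 libraries.

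Lipid genes numbered 11, with a median of 30.2 CPM, or 14.2 CPM per kb. Of these, 4 came from the list and the rest were placed after their values were seen. Dgat2, which makes triglyceride from diglyceride, had the most reads with 830 and 658 counts in replicates 7 and 8 (146 ± 17.4 CPM; SD, n = 2). Gltpd2, a protein with a glycolipid transfer domain, stood at 61.0 ± 11.97 CPM, and Elovl2, an elongase of polyunsaturated fatty acids, at 42.7 ± 12.8 CPM. Fabp2 and Fabp1, the intestinal and liver fatty acid binding proteins, stood at 32.0 ± 2.32 and 22.2 ± 1.98 CPM. Acnat1, an acyltransferase of fatty acids, the amide hydrolase Faah, the hydrolase Adtrp and the lipid droplet protein Cideb lay between 20.2 and 30.2 CPM. Of 14 further genes of the list tested, 10 rose against the endothelial and 12 against the erythroid libraries, with none called lower. For all genes tested the shares that rose were 14.6% and 31.5%. Among the 14 was Mogat2, an acyltransferase of dietary fat absorption, at 295 ± 30.6 CPM against 6.51 ± 2.72 CPM in endothelial pools (SD, n = 3).

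Epithelial polarity and adhesion gave 10 genes with a median of 31.5 CPM, 2 from the list and the rest placed after their values were seen. Gjb2, a gap junction connexin, had 533 and 528 counts in replicates 7 and 8 (105 ± 4.04 CPM; SD, n = 2), and Gjb1, a connexin of liver and other epithelia, had 279 and 196 (46.6 ± 9.47 CPM). Crb3, an apical polarity protein, stood at 41.1 ± 6.18 CPM. Its exons overlap those of Dennd1c on the other strand. Mpzl2 and Cxadr, both immunoglobulin-type adhesion proteins, stood at 36.9 ± 6.00 and 33.02 ± 3.17 CPM. The others, Epb41l4b, Smim22, Arhgef16 and the matrix genes Fras1 and Postn, lay between 23.4 and 30.1 CPM. Of 18 further genes of the list tested, 9 rose against the endothelial and 11 against the erythroid libraries, with none called lower. The shares over all genes tested were 14.6% and 31.5%.

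Channels, signalling proteins and receptors made up 9 genes. The 3 of the channel role were grouped by the start of their symbol. All 6 signalling and receptor genes were placed after their values were seen. Tmem30b, a subunit of lipid flippases, had 501 and 366 counts in replicates 7 and 8 (85.2 ± 14.97 CPM; SD, n = 2). Clic6 and Clic5, of the chloride intracellular channel family, stood at 68.6 ± 10.01 and 27.4 ± 3.64 CPM. Pde6c, the phosphodiesterase subunit of cone photoreceptors, had 302 and 300 counts (59.4 ± 2.41 CPM). Klb, the co-receptor through which endocrine fibroblast growth factors act, had 286 and 215 counts (49.2 ± 7.67 CPM). Of the receptors with which Klb pairs, Fgfr4 had 58 and 37 counts and Fgfr3 50 and 48, both with 0 elsewhere, while Fgfr1 was also read in the endothelial libraries, at 14.96 ± 9.76 CPM (SD, n = 3) against 33.6 ± 1.69 CPM. The kinase gene Sgk2, the phosphatase inhibitor gene Ppp1r14d, the glucagon receptor gene Gcgr and Sh2d4a lay between 26.1 and 34.5 CPM. Of 18 further signals and receptors tested, 7 rose against the endothelial libraries, and 13 rose and 1 fell against the erythroid libraries. In all genes tested, 14.6% and 31.5% rose.

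Chromosome X held 9 of the 110 genes with a chromosome (8.18%, 95% exact binomial interval 3.81% to 14.96%), against 3.60% of 4667 other genes with at least 100 counts in both libraries and 4.38% of the whole table. It was not alone in this, since chromosome 19 held 8 genes (7.27%, against 3.51% of the other genes). Chromosomes 3 and 7 held 10 each (9.09%), against 5.53% and 6.51% of the other genes and 4.68% and 9.02% of the whole table. The share on chromosome 7 was thus near that of the whole table. Nxf7, a relative of the mRNA export factor gene Nxf1, had 623 and 320 counts in replicates 7 and 8 (92.1 ± 38.1 CPM; SD, n = 2). Nup62cl, a nucleoporin-like gene, had nearly equal counts of 421 and 399 (80.9 ± 0.594 CPM). Rhox6, a homeobox gene of the reproductive cluster (chromosome X, 37826910 to 37829857, plus strand), had 202 and 356 counts (55.6 ± 24.0 CPM). Its cluster neighbour Rhox5 was outside the set at 622 ± 30.5 CPM against 3.45 ± 5.28 CPM in endothelial pools (SD, n = 3), and Rhox9 was under the threshold with 87 and 147 counts and 0 elsewhere. The long noncoding RNA 1700019B21Rik, which has no described role here, had 463 and 485 counts (93.7 ± 7.31 CPM). The remaining X-linked genes were Otc, Gjb1, AU015836, Nudt11 and Rnf138rt1. L1td1, an RNA-binding gene of germ and stem cells that was grouped with these, lies on chromosome 4 and stood at 24.7 ± 5.86 CPM. Of 9 further genes of the X-linked and germline-type list tested, 6 rose and 1 fell against the endothelial libraries and 7 rose against the erythroid libraries. Across all genes tested, 14.6% and 31.5% rose.

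Clone names covered 8 genes. 2610528J11Rik (chromosome 4, 118526999 to 118530228, plus strand) had 1245 and 1320 counts in replicates 7 and 8, the highest lower-of-both level of the 111 genes, with a mean of 253 ± 21.9 CPM (SD, n = 2). Per kilobase it was second to Tff3 at 211 CPM per kb. The other clone and model genes were 1700019B21Rik, 0610005C13Rik, 2810459M11Rik, 2310030G06Rik, 1700011H14Rik, Gm10768 and 1700019D03Rik. A further 18 genes were put under no role and lay between 22.2 and 52.9 CPM, with Dnajc22, a membrane-bound co-chaperone of the DnaJ family, at the top with 296 and 242 counts. They also included Golt1a, a Golgi transport protein with one of the HNF1-type matches, at 36.2 ± 0.384 CPM. The rest included Ccdc68, Rnf138rt1, BC021785, Sel1l3, AU015836, Olfml1, Ttc36, Nudt11, Ifi27l2b, Mettl7b, Cutal, AI314278, Tubal3, Cgref1 and Ms4a10. By RefSeq, 105 of the 111 genes code for protein and 5 are long noncoding RNAs. Exons of 22 genes overlap those of another gene in GENCODE, 19 of them on the other strand. The genes were scattered over the genome, and only Eps8l3 and Gstm3 on chromosome 3 lay within 100 kb of each other, 70796 bases apart.

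**Figure D4:**
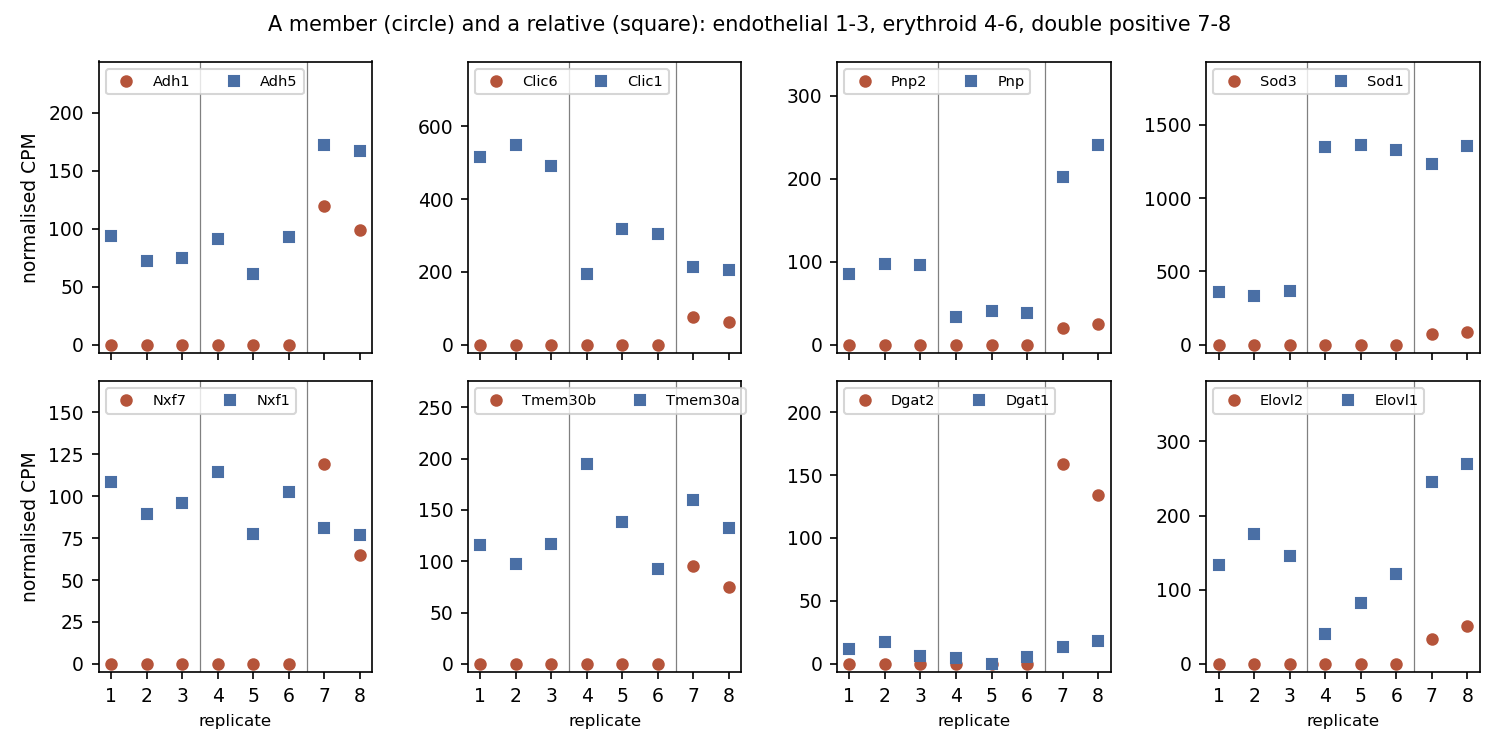
Normalised CPM (vertical axis, linear, a scale for each panel) of 8 of the 111 genes (circles) and a relative of each (squares) in replicates 1 to 8 (horizontal axis), split by lines into endothelial, erythroid and double positive pools. Each circle is at 0 in replicates 1 to 6, while 7 of the 8 relatives are above 0 in all 8 libraries and Dgat1 is at 0 in replicate 5.

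For several of the genes a relative with a like reaction was read in all populations. These pairs were picked after their values were seen. Adh5, the widely expressed alcohol dehydrogenase, stood at 80.1 ± 11.9 CPM in endothelial pools, 81.8 ± 17.9 CPM in erythroid pools (SD, n = 3 each) and 170 ± 3.76 CPM in double positive pools (SD, n = 2), where Adh1 stood at 109 ± 14.4 CPM. Sod1, the cytosolic superoxide dismutase, stood at 352 ± 18.05, 1347 ± 16.07 and 1294 ± 84.5 CPM in the same order, and the secreted Sod3 was read in the last alone. Nxf1 was similar in all, at 98.0 ± 9.49, 98.2 ± 18.6 and 78.9 ± 3.26 CPM, and Nxf7 was read beside it in the double positive libraries alone. Pnp stood at 222 ± 27.1 CPM and its close copy Pnp2 at 22.5 ± 3.67 CPM, in a pair of copies whose reads counting could split. Dgat1, the other enzyme of the last step of triglyceride synthesis, stood at 11.9 ± 5.57, 3.59 ± 3.15 and 15.96 ± 3.37 CPM, beside 146 ± 17.4 CPM for Dgat2. Levels of the partners in a pair are not compared, since they are not per length.

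Between the 2 double positive pools, the median ratio of replicate 7 to replicate 8 over the 111 genes was 1.04 (0.06 on the log2 scale), and 60 of 111 were higher in replicate 7. That median depends on the scale, and was 0.10 on the log2 scale with RLE factors and 0.21 with library size alone. The median difference in either direction was 1.24-fold, against 1.17-fold over the 4673 other genes with at least 100 counts in both libraries. With 1 library on each side these are descriptions with no test. A difference of over 2-fold was found in 2 of the 111 genes (1.80%) and in 25 of the 4673 others (0.535%). Igfbp1 was 3.98-fold higher in replicate 7 (95% counting interval 3.44 to 4.61), at 186 CPM against 46.7 CPM. Sycn was 2.12-fold higher in replicate 8 (1.80 to 2.51), at 86.0 against 40.5 CPM. Next came Cyp2s1 at 2.00-fold, Nudt11 at 1.88-fold, Nxf7 at 1.83-fold and Pdzd3 at 1.77-fold on the side of replicate 7, and Otc at 1.99-fold, Rhox6 at 1.88-fold and Lect2 at 1.71-fold on the side of replicate 8. The 32 genes left out by symbol were higher in replicate 7 in 24 cases, with a median of 0.28 on the log2 scale. Globin genes took 8.85% of counts in replicate 7 and 14.0% in replicate 8, and the part of that difference in these ratios was not tested.

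**Figure D5:**
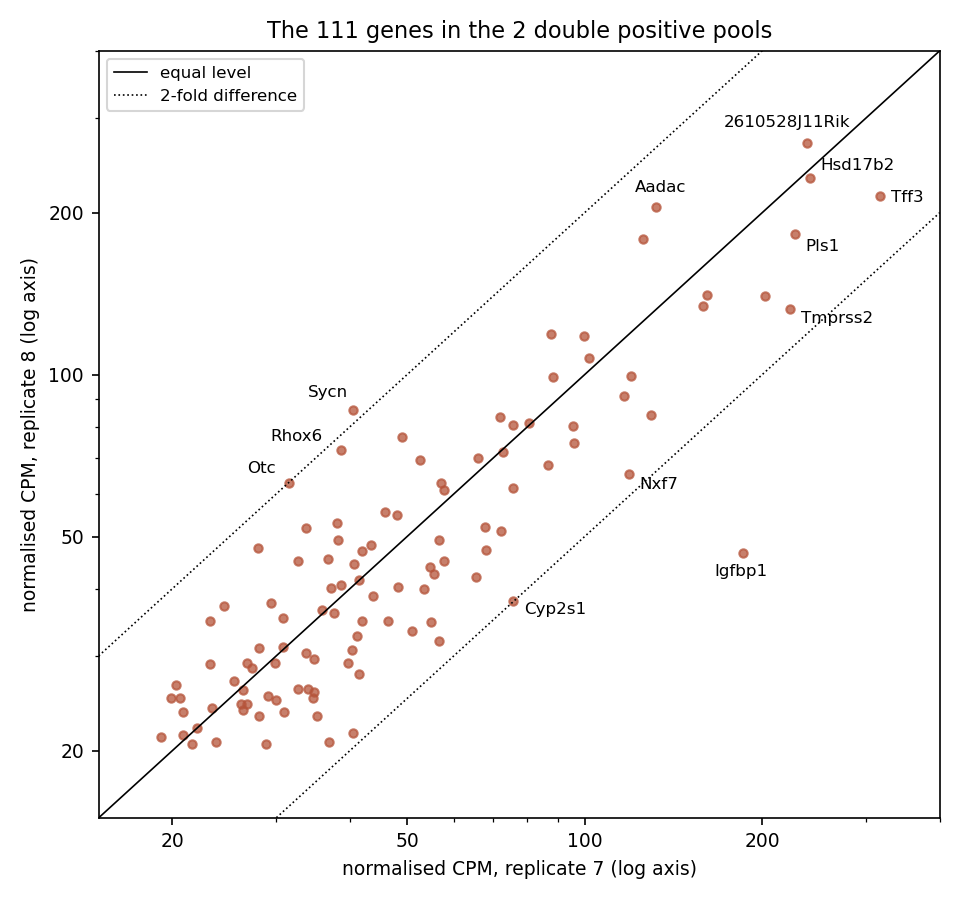
Normalised CPM of the 111 genes in replicate 7 (horizontal log axis) and replicate 8 (vertical log axis), with lines at equal level and at a 2-fold difference. Most points lie inside the dotted lines, with Igfbp1 outside on the side of replicate 7 and Sycn on the side of replicate 8.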

How the data were processed

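The authors deposited 1 table of raw read counts per gene symbol for 8 pools of sorted cells, amplified with 14 PCR cycles by the Smart-seq2 method per the labels' protocols. Per the submitters' processing notes, reads were checked with FastQC and counted with HTSeq on mm10. The aligner, annotation, strand setting and versions were not given in the sources used here. All 8 value columns were matched to samples by title.

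Counts were fitted in R 4.3.3 with edgeR 4.0.16 (filterByExpr with a minimum count of 10, TMM factors, robust quasi-likelihood, 1 mean per population, all 8 libraries), with Benjamini-Hochberg adjustment over 12136 genes and a two-sided threshold of 0.05. Genes of a list said to rise or fall were called at that threshold. CPM values use the TMM-scaled library sizes. The script was tested on simulated data with known rises in the double positive libraries. Against the endothelial libraries it recovered 2% of 2-fold, 44% of 4-fold and 88% of 16-fold rises. Against the erythroid libraries it recovered 20%, 54% and 88%, so a gene that was not called may still differ. DESeq2 1.42.0, other scalings, filters, thresholds and leaving out each library were alternatives. Tables were made with scipy 1.17.1, numpy 2.4.6 and pandas 2.3.3 in python 3.11.15 and drawn with matplotlib 3.10.9. Positions and exon lengths come from GENCODE M21 and promoters from RefSeq (GRCm38.p6).

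The 111 genes, the role lists and the motifs were chosen with earlier results of these data known. The lists placed 50 genes, 43 were placed after their values were seen, and 18 had no role. Values were given for the 15 genes with the highest lower-of-both CPM, up to 5 per role, those at the threshold, the 5 highest and 5 lowest ratios of replicate 7 to 8, and genes with 1 to 3 counts elsewhere. Others are named, after their values were seen, to account for the set, except a few genes that are not reported here. Genes outside the set were named after their values were seen, apart from Afp and Cdh5.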

Additional observations from a re-analysis of the deposited data

How the results depend on the processing

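Of 84 alternatives over all results, 61 left the value within 1.5 times or within its spread. The number of genes meeting the rule, 111, became 188, 49 and 12 at a minimum of 50, 200 and 500 counts, and ranged from 114 to 142 when each library was left out. Under the rule, leaving out a library can only keep or add genes, so those runs, counted among the 84, could not show a fall. With up to 3 and up to 10 counts allowed in replicates 1 to 6, which also can only add genes, the number was 128 and 151. With the minimum set on CPM it was 108. Genes higher than in the endothelial libraries, 1776, became 1118 with library size alone and 696 to 1854 with a library left out (838 without replicate 7 and 696 without replicate 8). Genes lower, 840, became 1901 with library size alone, 1422 with only the groups compared, 1409 by DESeq2 and 219 to 1038 with a library left out (502, 549, 219 and 281 without replicates 1, 3, 7 and 8). Against the erythroid libraries, 3820 higher became 5760 with library size alone and 2315 to 3845 with a library left out (2315 and 2401 without replicates 7 and 8), and 1283 lower became 473 with library size alone and 609 to 1348 with a library left out (609 and 674 without replicates 7 and 8). Where replicate 7 or 8 is left out, the lone double positive library is assumed to vary like the other groups. The median log2 ratio of replicate 7 to 8, 0.06, became 0.10 with RLE factors, 0.21 with library size alone, 0.091 without globin genes and Rn45s, and 0.13 over the 12 genes with at least 500 counts. Each of the 9 motif shares stayed within its interval when only the 250 bases before the start were read. No paired analysis was possible because no replicate number is shared between populations. Depth limits each zero to the floors given, and 2 double positive pools limit every level.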

Other observations

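A few genes were read in 1 double positive pool alone. At 30 counts or more in that pool and 0 in the other 7 libraries there were 4 genes in replicate 8 and none in replicate 7. In replicate 8 these were 3830417A13Rik with 88 counts, Ldoc1 with 81, the connexin gene Gjb5 with 47 and Gm4841 with 30. Genes at 0 in replicates 1 to 6 numbered 10498, of which 8452 were at 0 in all 8 libraries and 983 had counts in exactly 1 double positive library.

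Which library kept genes out of the set differed. Leaving out replicate 8 let in 31 genes, whose counts there had a median of 86, and leaving out replicate 7 let in 3. Leaving out endothelial replicates 1, 2 and 3 let in 19, 19 and 14 genes, and leaving out erythroid replicates 4, 5 and 6 let in 5, 4 and 3.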
